A study of Mus musculus with 34 samples.

Results

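HTS of mRNA from 8 tumours was compared, 4 from mice that received the combination of DkkMo and doxorubicin (DRB) and 4 from mice without treatment (NT). They were selected by their labels from 16 sequenced tumours and 34 samples in all, and each of the 12595 genes in the tumour table was compared. Tumours are named here by the numbers in their labels, NT 1, 5, 6 and 7 and Combination 34, 36, 38 and 40. All of them grew from MOSJ-Dkk1 cells, a mouse osteosarcoma line with a lentiviral cassette that expresses human Dkk-1 from the constitutive CMV promoter, together with a red fluorescent label, so the NT tumours carry the Dkk-1 transgene too. The hosts were NU/J nude mice, young adults that lack functional Foxn1 and therefore most mature T cells but keep other leukocytes. DkkMo is a vivo morpholino, an antisense oligomer that blocks translation, against the 5′ part of the human Dkk-1 transcript. Both agents were given by repeated i.p. injection, and NT mice received vehicle. No tumour from a mouse given a control morpholino is among the samples, so the chemistry of the oligomer was not matched in NT. Tumour and stroma were dissected together from perfusion-fixed tissue stored in formaldehyde, so the values are for bulk RNA, in which fewer cells of a type and less RNA per cell cannot be told apart. The human transgene is not part of the mouse gene table, and mouse Dkk1 is not among its rows, so the target of DkkMo was not checked here.

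Dkk-1 is a secreted inhibitor of canonical Wnt signalling. It binds the LRP co-receptors and so keeps β-catenin from accumulating, which restrains the maturation of osteoblasts. Doxorubicin intercalates into DNA, poisons type II topoisomerases and generates reactive oxygen species. Aldehyde dehydrogenases such as Aldh1a1 detoxify reactive aldehydes formed under oxidative stress and are used as markers of stem-like tumour cells. The comparison addresses which transcripts differ between tumours that received both agents and tumours that received neither.

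The libraries differed before any gene was considered. Between 53.8 and 125 megareads fell on listed genes in NT and between 28.3 and 41.1 megareads in combination tumours, without overlap (two-sided exact permutation p = 0.0286, which is the lowest possible with 4 tumours a group). The combination tumours were alike, with Spearman correlations across genes of 0.77 to 0.85 between them, and the NT tumours were not, with 0.25 to 0.76. NT 5 correlated with the combination tumours at 0.81 to 0.89, and NT 1, 6 and 7 did so at 0.23 to 0.73. NT 7 was rich in transcripts of housekeeping genes, with 32040 RPM (reads scaled to a common library total) on ribosomal protein genes, against 2596, 48.2 and 833 in NT 1, 5 and 6. Combination 36 had 1710 RPM on them and the other combination tumours 25.9 to 55.8. Runx2 and Col1a1, which mark the osteoblast lineage, and Alpl, the bone alkaline phosphatase, had reads in all 8 tumours. These reads do not show that a tumour resembles the cultured line. Spearman correlations across genes with untreated log-phase cultures of the line were -0.17 to -0.12 in the combination tumours. They were 0.03, -0.18, -0.07 and 0.44 in NT 1, 5, 6 and 7, and the cause was not tested. The deposited values are variance-stabilised log2 values, in which 6.23 stands for 0 reads, and all differences below are differences of group means on that scale, combination minus NT.

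**Figure D1:**
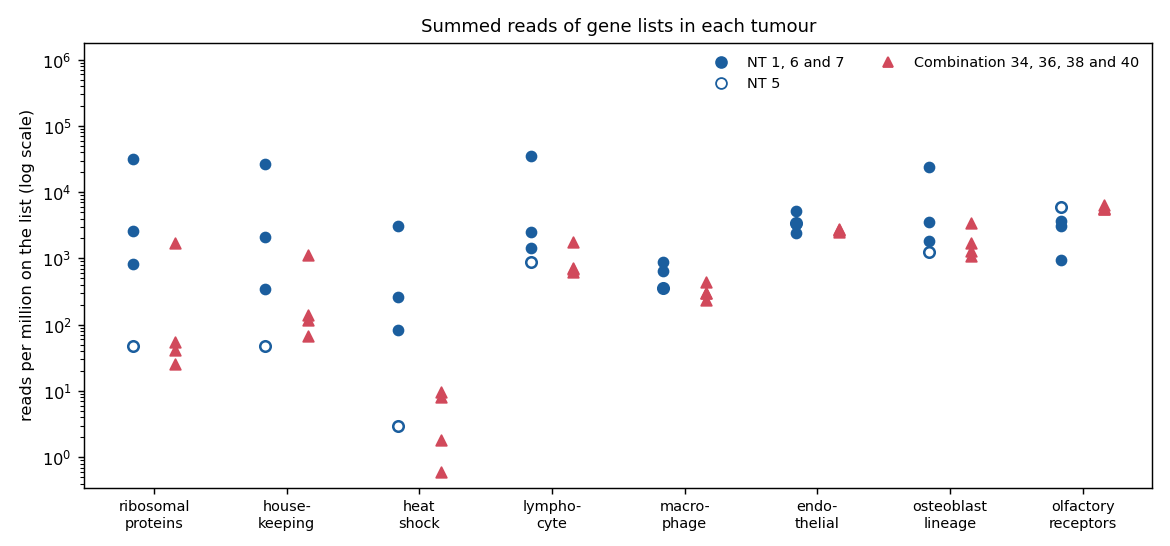
Summed RPM (log axis, reads scaled to a common library total) on the measured genes of 8 lists, for the NT tumours (circles, NT 5 open) and the combination tumours (triangles). Ribosomal protein, housekeeping and heat shock reads spread widely within NT, where NT 7 lies highest and NT 5 lies among or near the combination tumours; no list separates the groups.

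No gene was called between combination and NT at an adjusted p below 0.05 and over 1.5-fold (limma with Benjamini-Hochberg adjustment over 12595 genes, 0% called), and limma's voom on the recovered reads called 0 as well. At an unadjusted p below 0.05, 1361 genes lay lower (10.8%) and 206 higher (1.64%) in the combination, and voom gave 701 in both directions together. The smallest adjusted p was 0.0791, for Trub1. Over all genes the median difference was -0.52, and 67.8% of genes had the lower mean in the combination. This shift depended on the scale. With each library centred on its median the median difference became 0.20, with 827 genes higher and 653 lower at an unadjusted p below 0.05, and as RPM it became 0.22, with 1097 higher and 714 lower. A single difference below is therefore read against these medians.

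The values of the groups did not overlap for 690 genes, of which 531 (4.22% of all genes) lay lower in every combination tumour than in every NT tumour and 159 (1.26%) lay higher. With the libraries centred, 302 genes (2.40%) lay lower and 355 (2.82%) higher without overlap, so the excess of lower genes went with the scale. The 531 lower genes had a median value of 10.28 in NT and 7.26 in the combination, and 61 of them had 0 reads in all 4 combination tumours. Over the whole table, 108 genes had 0 reads in all 4 combination tumours and 4 genes had 0 reads in all 4 NT tumours. The combination libraries were also the shallower, with 28.3 to 41.1 megareads against 53.8 to 125 in NT. How far depth contributed to these counts was not tested. Of the 531, 80% are protein coding and 62.3% are also listed for the cultured cells of the same line, against 75.3% and 54.4% of all genes compared. Of the 159 higher genes, 56.1% are protein coding and 30.2% are listed for the cultures, and their median exonic length was 2466 bp against 4073 bp over all genes. These shares describe genes chosen on this contrast and carry no test.

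Without NT 5, left out because its profile resembles the combination tumours, limma called 252 genes, 240 lower (1.91%) and 12 higher (0.0953%), with a median difference of -0.66 over all genes. NT 5 was set aside after its values had been seen. Leaving out the NT tumour nearest to the combination tends to widen differences by selection. These counts, and each adjusted p given without NT 5, are therefore descriptive and support no single gene. The label of NT 5 could not be checked from the listed genes, and why it resembles treated tumours was not tested. Both bear on each value given with and without it. Of the 240 lower genes, 159 had NT 5 inside or below the range of the combination tumours, and of the 12 higher genes 7 had it inside or above that range. Among the 252 genes, 86 also separated the groups with all 8 tumours. The direction of these calls moved with the scale as well: without NT 5, 22 higher and 75 lower genes were called after centring, and 276 higher and 128 lower on RPM. Voom without NT 5 called 3 genes, all lower.

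**Figure D2:**
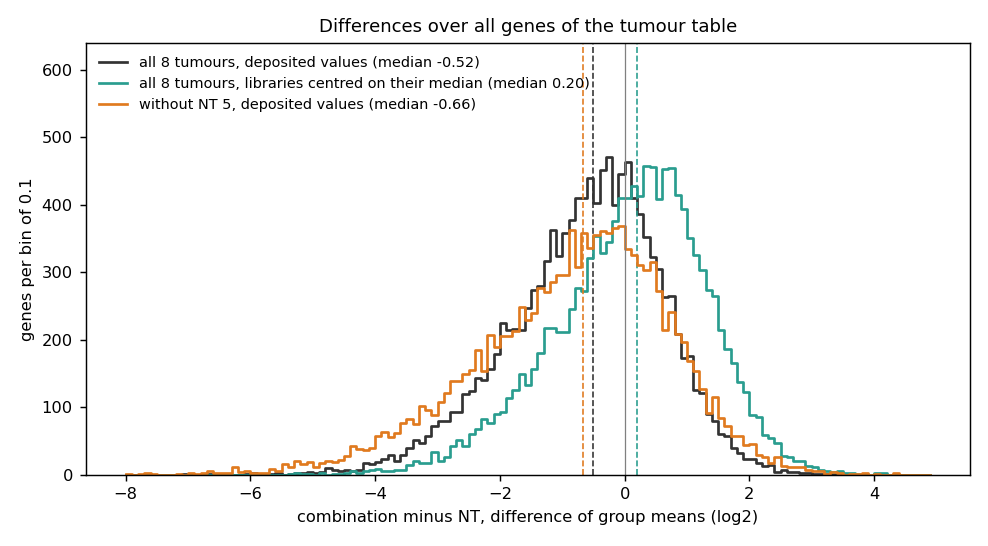
Number of genes (y axis, bins of 0.1) by the difference of group means, combination minus NT (x axis, log2), for the deposited values, for libraries centred on their median, and without NT 5; dashed lines are medians. The medians of -0.52, 0.20 and -0.66 show how far the scale and NT 5 move the whole distribution.

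Of the genes that the study names in its text, 5 are listed in the tumours, and Aldh1a1 was the one that separated the groups. Aldh1a1 (chr19:20492715-20643465, plus strand, GRCm38) had values of 11.06, 12.34, 10.77 and 11.90 in NT 1, 5, 6 and 7 and of 9.23, 9.00, 9.38 and 8.85 in Combination 34, 36, 38 and 40. Every combination tumour lay below every NT tumour, NT 5 had the highest value of all, and the groups stayed apart after centring. The difference was -2.40 ± 0.62 (SE, n = 4 and 4), with an unadjusted p of 0.000931 and an adjusted p of 0.312 (limma). Of 13 measured aldehyde dehydrogenases, 1 (Aldh1a1) lay lower at an unadjusted p below 0.05 and 0 lay higher, against 10.8% and 1.64% of all genes. Their median difference was -0.48, close to that of all genes, and 0.23 after centring. The study chose these named genes with its own samples in view, so they are no independent evidence of a direction.

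The other named genes overlapped between the groups on the deposited scale. Nsd1, a histone H3 lysine methyltransferase, had values of 13.29, 7.86, 12.27 and 15.84 in NT and 7.87, 6.38, 7.77 and 6.69 in the combination, so that NT 5 lay within the combination range and the other NT tumours far above it. NT 5 lay just below Combination 34 there, and after centring the groups of Nsd1 did not overlap. Its difference was -5.14 ± 1.30 with an adjusted p of 0.312, and -6.62 ± 1.11 with an adjusted p of 0.0118 without NT 5 (limma). Arpc2, a subunit of the Arp2/3 complex that branches actin filaments, differed by -3.89 ± 1.51 (adjusted p = 0.373), and Setd7, another lysine methyltransferase, by -2.50 ± 1.17 (adjusted p = 0.394). Hsd17b4, an enzyme of peroxisomal β-oxidation, differed by -1.58 ± 1.22 (adjusted p = 0.565). Without NT 5 the adjusted p was 0.0606 for Arpc2, 0.127 for Setd7 and 0.3 for Hsd17b4.

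**Figure D3:**
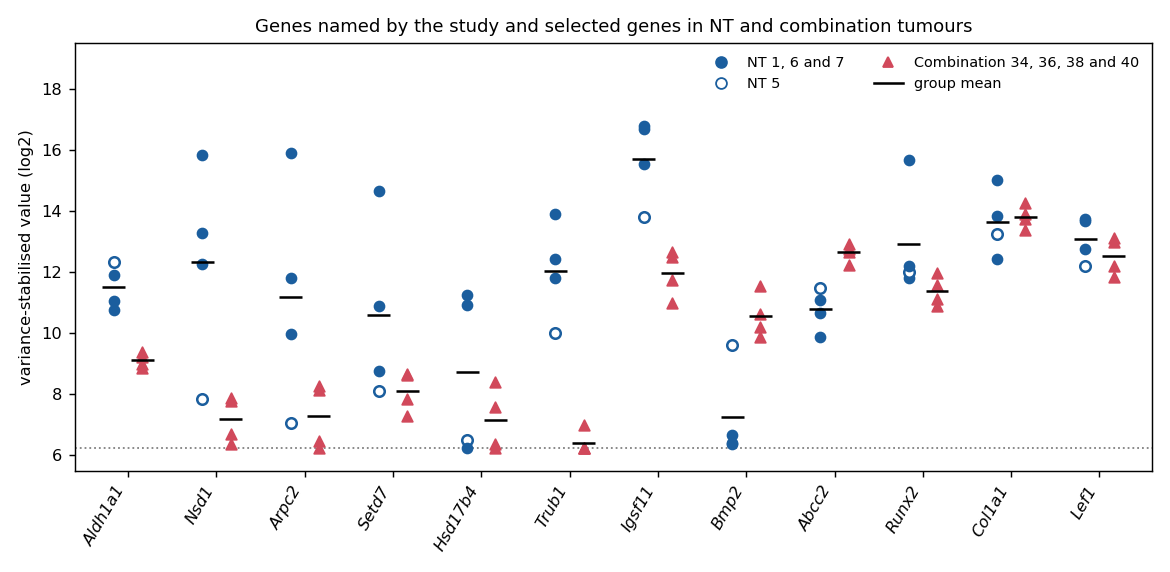
Variance-stabilised values (y axis, log2) of the 5 listed genes that the study names and of 7 further genes, in NT tumours (circles, NT 5 open) and combination tumours (triangles), with group means as bars and 0 reads as the dotted line. Aldh1a1, Trub1 and Igsf11 lie lower and Bmp2 and Abcc2 higher in all 4 combination tumours, whereas NT 5 lies within the combination range of Nsd1.

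Trub1 (chr19:57452912-57491005, plus strand), a pseudouridine synthase that modifies tRNA and mRNA, had the smallest p of the table. It had values of 11.80, 10.00, 12.44 and 13.89 in NT 1, 5, 6 and 7, which correspond to 3989, 2860, 4755 and 12786 reads. Combination 34, 36 and 40 had 0 reads and Combination 38 had 28. The difference was -5.61 ± 0.92 with an adjusted p of 0.0791, and of 0.00737 without NT 5 (limma). Igsf11, an immunoglobulin superfamily adhesion molecule, was abundant in all tumours and still separated them, with 16.67, 13.81, 15.53 and 16.77 in NT against 12.48, 10.98, 12.64 and 11.73 in the combination. Its difference was -3.74 ± 0.70 (adjusted p = 0.113, and 0.00737 without NT 5).

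Further genes with a small p or a large difference and no overlap were of varied function. Trak1, an adaptor that links mitochondria to kinesin motors, differed by -4.02 ± 0.84 (adjusted p = 0.125), and Wnk1, a kinase that controls cation-chloride cotransporters, by -4.45 ± 0.96 (adjusted p = 0.164). Bbip1, a subunit of the ciliary BBSome, had values of 13.46 to 15.69 in NT and 6.23 to 10.49 in the combination, a difference of -6.50 ± 1.29. Tle7, a gene of the Groucho co-repressor family, had values of 14.68 to 18.08 in NT and 9.49 to 10.89 in the combination, a difference of -5.99 ± 1.23. Irx6, a homeodomain factor, differed by -4.62 ± 1.02, Mgat4a, a glycosyltransferase of the Golgi, by -3.09 ± 0.72, and Fbxo11, a substrate receptor of an SCF ubiquitin ligase, by -3.37 ± 0.82. Each of these 7 genes had an adjusted p above 0.05 with all 8 tumours and below it without NT 5. With the libraries centred as well, Mgat4a (adjusted p = 0.0631) and Fbxo11 (0.0806) lay above it without NT 5 (limma).

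Among separating genes other than predicted ones, Prf1 had the largest difference. It encodes perforin, the pore-forming protein of cytotoxic lymphocytes. Prf1 had 12907, 91, 16500 and 478630 reads in NT 1, 5, 6 and 7, and 19, 0, 0 and 0 in Combination 34, 36, 38 and 40. NT 7 alone held most of these reads and NT 5 was close to the combination tumours (values 7.10 against at most 6.96). The difference was -7.05 ± 1.71 (adjusted p = 0.296, and 0.00737 without NT 5). Gzmb, granzyme B, the protease that enters target cells through perforin pores, differed by -3.71 ± 1.43 (adjusted p = 0.373), but Combination 36 at 15.45 lay above NT 5 at 12.38. Lyz1, a lysozyme, had 5017, 7, 9816 and 66183 reads in NT and 0 in each combination tumour, so its mean normalized count was at least 9210-fold lower, taking 3 reads per library as the limit, and at least 2040-fold lower without NT 7. A close paralogue can share reads, so the split between them is uncertain. Laptm5, a lysosomal membrane protein of haematopoietic cells, differed by -4.95 ± 1.47, with 461 reads in NT 5 and 138 in Combination 36 as the nearest values.

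The markers of immune cells were counted against the 10.8% of all genes that lay lower and the 4.22% that did so without overlap. Of 8 measured lymphocyte markers 2 lay lower at an unadjusted p below 0.05 (Prf1 and Gzmb) and 0 higher, with a median difference of -1.78. Their summed level was 877 to 34680 RPM in NT and 624 to 1798 in the combination. Of 10 macrophage markers 2 lay lower (Cx3cr1 and Tyrobp, both without overlap) and 0 higher, with a median difference of -1.11, or -0.39 after centring, and summed levels of 360 to 895 and 233 to 435 RPM. Cx3cr1, the fractalkine receptor, had values of 10.38 to 13.93 in NT and 8.59 to 10.32 in the combination, and Tyrobp, an adaptor of myeloid receptors, had 6.73 to 15.82 and 6.38 to 6.71. Adgre1, the macrophage antigen F4/80, overlapped, with 10.98 to 13.62 and 9.94 to 11.70. Of 5 neutrophil markers 0 passed in either direction, and their median difference of -0.48 was close to that of all genes. The part of these cells in the other results was not tested.

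Genes of translation and protein folding gave the lowest list medians. Their counts stand beside the 10.8% of all genes that lay lower, the 1.64% higher and the median of -0.52. Lower without overlap were 4.22% of all genes. Of 56 cytosolic ribosomal protein genes and their annotated pseudogenes, 16 lay lower at an unadjusted p below 0.05 and 0 higher, and 8 separated the groups, with a median difference of -3.13. The median value of these 56 genes was 10.00, 6.36, 6.60 and 16.02 in NT 1, 5, 6 and 7 and 6.23, 7.50, 6.23 and 6.23 in Combination 34, 36, 38 and 40. NT 5 and NT 6 were thus near the combination tumours, and after centring 0 of the 56 separated the groups. Of 6 heat shock genes 4 lay lower, with a median difference of -3.30. Hspa8, the constitutive cytosolic chaperone, and Hsp90ab1, the constitutive cytosolic HSP90, had 0 reads in all 4 combination tumours. However, their values of 6.36 in NT 5 were near that floor, as was Hsp90ab1 at 6.58 in NT 6. Of 8 housekeeping genes 3 lay lower (Eef1a1, Eef2 and B2m), with a median difference of -3.17. Ncl, the nucleolar protein nucleolin, differed by -5.32 ± 1.69 (adjusted p = 0.343).

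The medians of these 3 lists were highest in NT 7 of the 8 tumours. Without NT 7 the number of genes at an unadjusted p below 0.05 was 785 instead of 1567, with a median difference over all genes of -0.25. How much RNA quality contributed was not tested.

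Redox and respiratory genes varied with the same libraries. The redox list had medians of 10.32, 7.21, 8.28 and 13.57 in NT 1, 5, 6 and 7 and of 6.60 to 7.69 in the combination, so that NT 5 lay within the combination range and NT 7 far above it. The respiratory list had 10.09, 6.94, 6.69 and 13.34 in NT and 6.64 to 7.71 in the combination. Of 12 glutathione, NRF2 and redox genes 5 lay lower at an unadjusted p below 0.05 and 0 higher, with a median difference of -2.59. For all genes these were 10.8%, 1.64% and -0.52. Gsta4, a glutathione transferase that conjugates lipid aldehydes such as hydroxynonenal, had values of 14.33, 11.41, 11.55 and 14.41 in NT and 9.90, 9.01, 10.11 and 8.50 in the combination. The groups did not overlap, also after centring, and the difference was -3.55 ± 0.87 (adjusted p = 0.308, and 0.0282 without NT 5). Gsta3, another glutathione transferase, differed by -2.36 ± 0.87 and Txnrd1, cytosolic thioredoxin reductase, by -3.19 ± 1.19, each without overlap before and after centring. Mt1, a metallothionein that binds zinc and copper, had 0 reads in all 4 combination tumours, at least 8030-fold lower (1430-fold without NT 7), although NT 5 at 6.47 lay just above that floor. Of 16 nuclear-encoded respiratory chain subunits 5 lay lower and 0 higher, with a median difference of -2.0, and Ndufb8 of complex I, 6.48 to 12.31 in NT and 6.23 to 6.47 in the combination, stayed separate after centring. The tumour table lists 0 genes of the mitochondrial genome.

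Chromatin and actin regulators, the families of Nsd1 and Arpc2, gave low list medians as well. Of 23 histone lysine methyltransferases 10 lay lower at an unadjusted p below 0.05 (Nsd1, Smyd3, Setd5, Ezh1, Kmt2d, Kmt2e, Kmt2a, Prdm2, Kmt2c and Setd7) and 0 higher, with a median difference of -1.73, against 10.8% and -0.52 over all genes. The list median was 14.34 in NT 7 and 11.72 and 10.38 in NT 1 and 6, while in NT 5 it was 9.07, within the 8.38 to 9.24 of the combination. Without NT 5, 2 of the 23 were called, Nsd1 and Smyd3. Kmt2d, which methylates H3 at enhancers, separated the groups with values of 7.52 to 14.34 in NT and 6.23 to 7.36 in the combination. Smyd3 did not, because NT 5 at 10.18 lay below Combination 34 at 11.14 and Combination 36 at 10.52. Of 14 genes of the Arp2/3 complex and its activators 6 lay lower and 0 higher, with a median difference of -1.87. Arpc5l, a subunit isoform, had 0 reads in all 4 combination tumours and values of 9.76, 7.01, 11.78 and 15.79 in NT, at least 6010-fold lower, and at least 544-fold lower without NT 7. Wasl, the N-WASP activator of the complex, had 6.90 to 13.43 in NT and 6.23 to 6.60 in the combination. Actr3b, a subunit isoform that replaces Actr3, went the other way, with 10.21 to 11.23 in NT and 11.48 to 12.77 in the combination (difference 1.06 ± 0.69, adjusted p = 0.507).

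**Figure D4:**
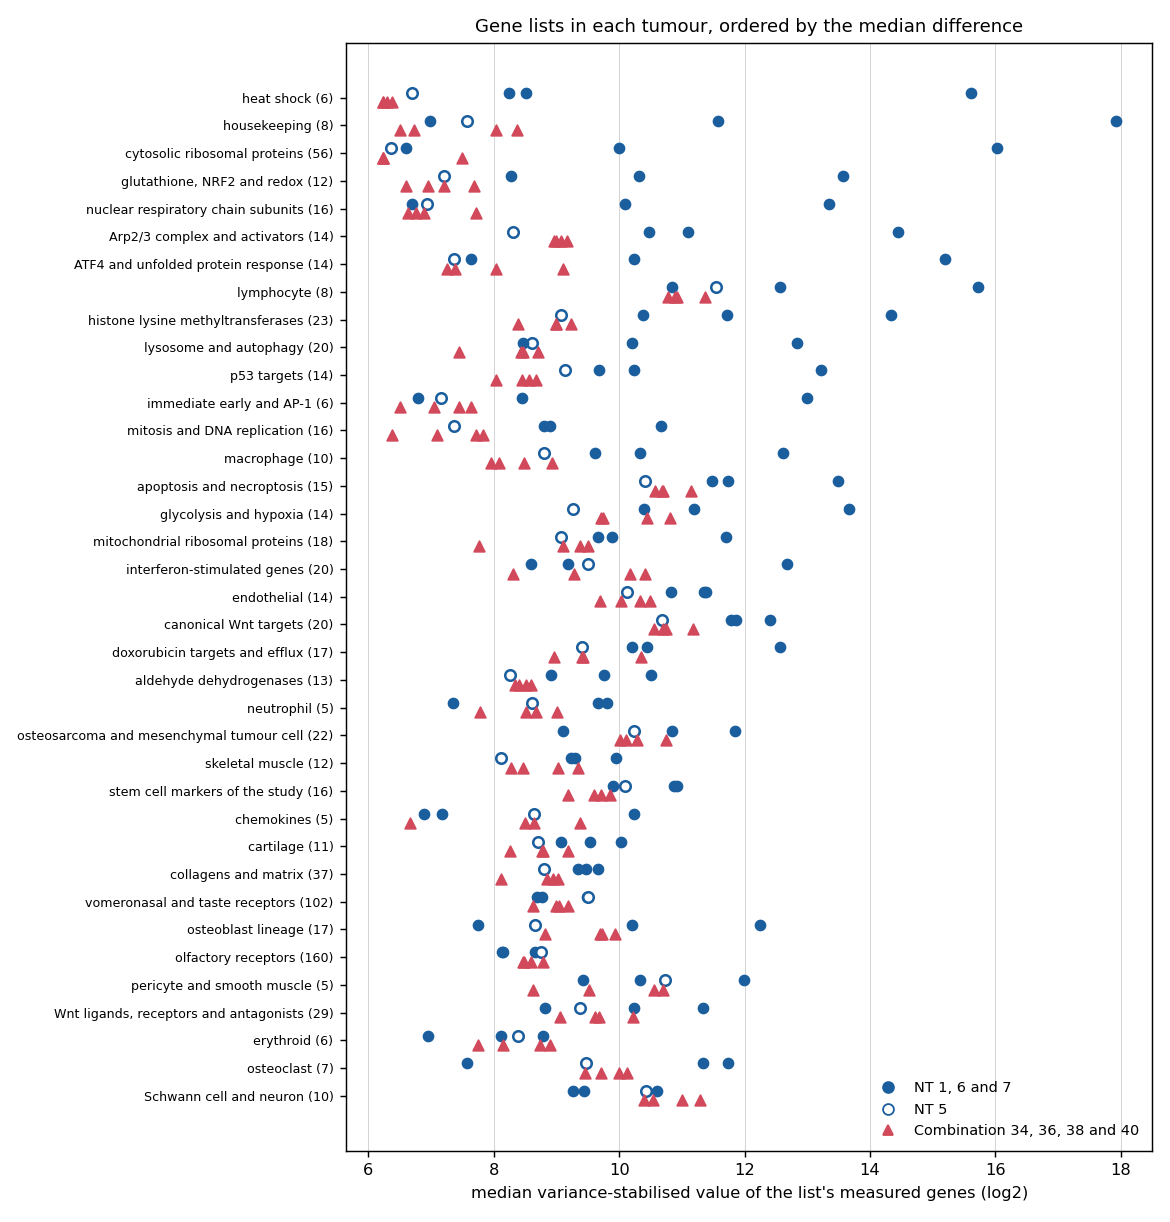
Median variance-stabilised value (x axis, log2) of the measured genes of each list (number in parentheses), per tumour, with NT as circles (NT 5 open) and the combination as triangles. The lists at the top, heat shock, housekeeping and ribosomal proteins, have NT 7 far to the right and NT 5 beside the combination tumours; collagens, the osteoblast lineage and the receptor families towards the bottom have differences near 0.

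Among genes of the response to DNA damage, Mdm2 separated the groups. Mdm2, the ubiquitin ligase that p53 induces and that degrades p53, had values of 13.04, 9.41, 12.89 and 16.77 in NT and 8.15, 6.23, 7.98 and 8.60 in the combination, a difference of -5.29 ± 1.5 (adjusted p = 0.326, and 0.0285 without NT 5). It was 1 of 2 among 14 measured p53 targets that lay lower at an unadjusted p below 0.05, a share close to the 10.8% of all genes, with 0 higher and a median difference of -1.51. Of 15 apoptosis and necroptosis genes 5 lay lower and 0 higher, with a median difference of -0.99, or -0.28 after centring. Hrk, a BH3-only activator of apoptosis, was the only one of them to separate the groups (difference -2.10 ± 0.83), where 4.22% of all genes did so as lower. Its nearest values were close to the floor, with 6 reads in NT 6 and 5 in Combination 36, and its groups overlapped after centring. Of 17 targets and transporters of doxorubicin, Top2b lay lower and Abcc2 higher at an unadjusted p below 0.05. Top2b, the topoisomerase II of non-dividing cells, differed by -3.88 ± 1.44 and overlapped between the groups. Abcc2, an efflux pump for drug conjugates, had values of 11.09, 11.48, 10.67 and 9.86 in NT and 12.24, 12.91, 12.76 and 12.67 in the combination, a difference of 1.87 ± 0.61 (adjusted p = 0.343). Of 16 genes of mitosis and DNA replication 4 lay lower, Mki67 and Cenpe among them, 0 lay higher and 0 separated the groups. Of 14 genes of ATF4 and the unfolded protein response 4 lay lower and 0 higher, with a median difference of -1.78, while Atf3, a stress-induced transcription factor, separated in the other direction (10.11 to 12.54 in NT, 12.63 to 12.96 in the combination).

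Canonical Wnt target genes are those that β-catenin activates. Of 20 measured targets 7 lay lower at an unadjusted p below 0.05 (Id2, Tcf7, Ephb2, Rnf43, Runx2, Sox9 and Tcf7l2) and 0 higher, against 10.8% and 1.64% of all genes, with a median difference of -0.68 that became 0.03 after centring. After centring 1 target separated the groups as lower and 1 as higher. Tcf7, a transcription factor of the pathway, separated the groups, with 10.90, 9.24, 11.77 and 12.90 in NT and 9.19, 8.95, 7.98 and 8.59 in the combination. NT 5 and Combination 34 differed by little there, and the difference was -2.53 ± 0.95 (adjusted p = 0.371). Axin2, a feedback inhibitor widely used as a reporter of the pathway, had 6.89 to 7.81 in NT and 7.05 to 8.45 in the combination, a difference of 0.44 ± 0.68 (adjusted p = 0.791). Lef1, another of its transcription factors, differed by -0.56 ± 0.64 (adjusted p = 0.704), which centring turned to 0.15. Of 29 Wnt ligands, receptors and antagonists 2 lay lower (Gsk3b and Kremen1, a co-receptor for Dkk-1) and 0 higher, with a median difference of 0.14.

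Bone and matrix genes showed no common direction. At an unadjusted p below 0.05, 10.8% of all genes lay lower and 1.64% higher. Of 17 genes of the osteoblast lineage 1 lay lower (Runx2, the master regulator, -1.52 ± 0.66, adjusted p = 0.392) and 1 higher (Bmp2), with a median difference of 0.02. Col1a1 differed by 0.18 ± 0.47 and Alpl by 0.28 ± 0.46, and the sign of each turned when 1 tumour was left out (NT 1 and Combination 40). Of 37 collagen and matrix genes 5 lay lower, near the share of all genes, and 0 higher. Their median was -0.08, which centring turned to 0.63. Pcolce, which enhances the cleavage of procollagen, was the only one without overlap, at 9.39 to 12.77 in NT and 6.60 to 9.06 in the combination (-3.17 ± 0.95, adjusted p = 0.339). Of 22 markers of mesenchymal tumour cells 1 lay lower at an unadjusted p below 0.05, Thy1, a surface glycoprotein of mesenchymal cells, with 0 reads in all 4 combination tumours and a value of 6.56 in NT 5. Their summed level was 1259 to 2440 RPM in NT and 1287 to 2289 in the combination.

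Higher genes were fewer on the deposited scale, where 1.26% of all genes separated the groups as higher and 4.22% as lower. With the libraries centred the shares were 2.82% higher and 2.40% lower. Among the higher genes, Bmp2 had the largest difference of those that are not predicted genes and separated the groups. Tmco5b (3.35 ± 0.93) and the predicted gene Gm34408 (3.47 ± 0.94) had larger differences with overlap. Bmp2 (chr2:133552159-133562885, plus strand) encodes a bone morphogenetic protein that drives osteoblast differentiation. It had 1, 6 and 1 reads in NT 1, 6 and 7 and 2096 reads in NT 5, against 2768, 1237, 1010 and 1991 reads in the combination. After division by the size factor, which was 3.24 for NT 5 and 0.975 to 1.4 for the combination, NT 5 had a value of 9.62 and the combination tumours 9.87 to 11.54, so the groups did not overlap by a small margin. The difference was 3.29 ± 1.03 (adjusted p = 0.342), and 4.08 ± 1.03 without NT 5 (adjusted p = 0.0456). Sh3yl1, a phosphoinositide-binding protein, had 9.69, 10.32, 7.42 and 8.39 in NT and 11.45, 12.91, 10.61 and 12.35 in the combination, and Epb41l4a, a FERM-domain protein, had 9.91, 11.66, 9.32 and 11.60 against 12.51, 13.70, 12.23 and 12.86. Both had an adjusted p above 0.05 with all 8 tumours and of 0.046 and 0.0335 without NT 5. Both stayed separate after centring.

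Other separating genes with large differences upwards included Bnip1, a SNARE of the endoplasmic reticulum (2.52 ± 1.03), Uts2b, a urotensin peptide (2.43 ± 0.81), Sp6, a transcription factor of tooth and limb development (2.37 ± 0.73), and Colec10, a collectin (1.68 ± 0.62). Hand2os1, a long non-coding RNA beside Hand2, had 9.42 to 11.98 in NT and 12.60 to 13.16 in the combination (2.35 ± 0.71, adjusted p = 0.339, and 0.0464 without NT 5). Tert, the catalytic subunit of telomerase, lay at 8.09 to 10.18 in NT and 10.25 to 11.84 in the combination (1.75 ± 0.81, adjusted p = 0.392), with NT 5 next to Combination 40.

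**Figure D5:**
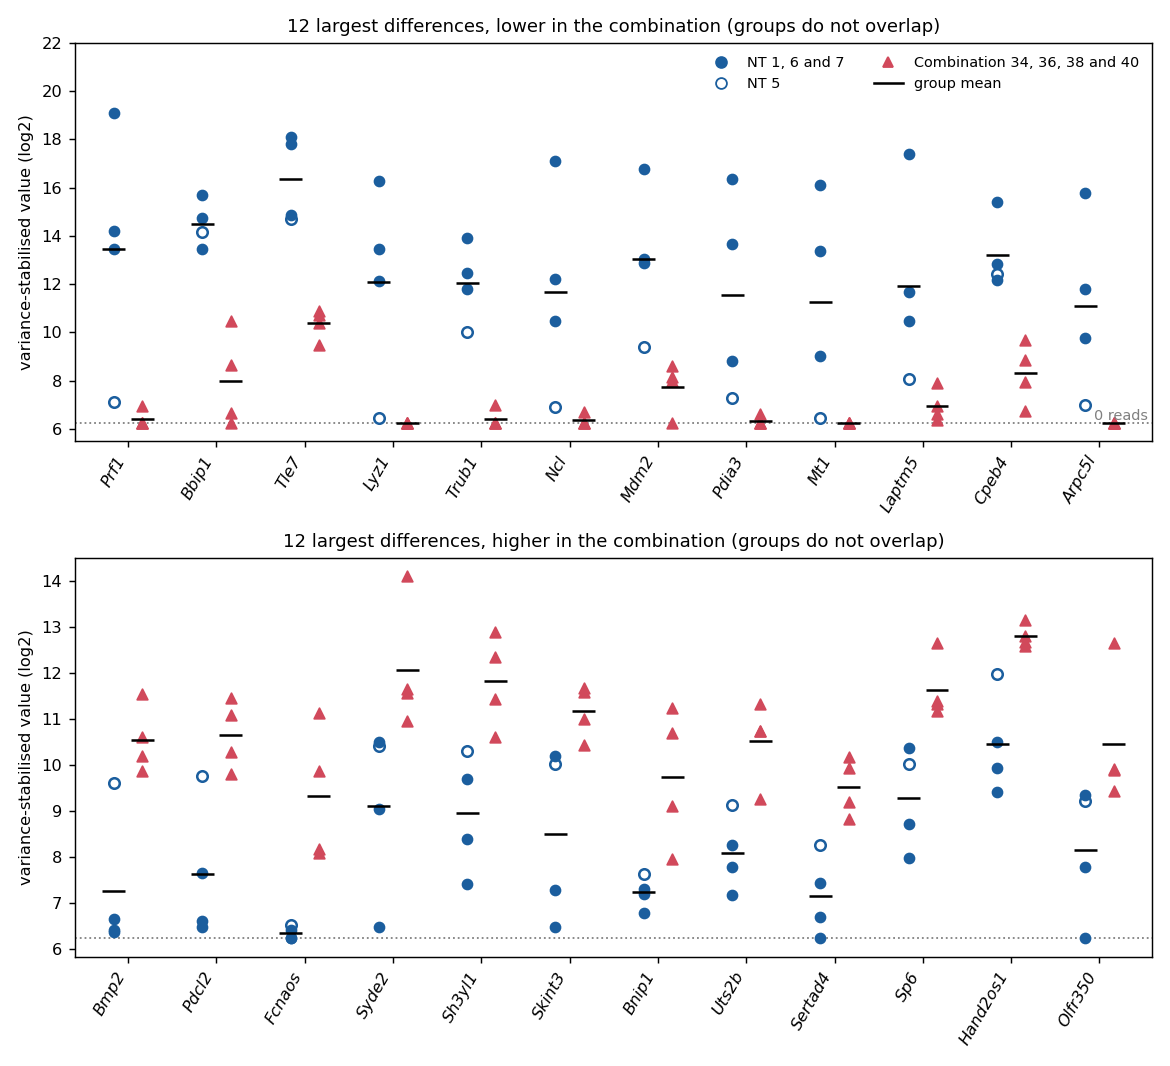
Variance-stabilised values (y axis, log2) of the 12 named genes with the largest lower and the 12 with the largest higher difference among genes whose groups do not overlap, in NT (circles, NT 5 open) and combination tumours (triangles), with group means as bars. Several lower genes have 0 reads (dotted line) in most combination tumours, and in Bmp2 and Pdcl2 NT 5 lies near the combination tumours.

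Genes of other cell types and sensory receptors had list medians on both sides of the -0.52 of all genes. Their counts stand beside the 10.8% of all genes that lay lower and the 1.64% higher. Of 14 endothelial genes 2 lay lower at an unadjusted p below 0.05 and 0 higher, and Erg, an endothelial transcription factor, had 14.87 to 17.74 in NT and 12.79 to 14.40 in the combination. Of 12 skeletal muscle genes 1 lay lower and 2 higher (Myl1 and Ckmt2), and the summed level of the list was 164 to 546 RPM in NT and 374 to 700 in the combination. Adipocyte genes summed to 172 to 595 and 582 to 916 RPM, and Schwann cell and neuron genes to 99.9 to 675 and 646 to 1056. Whether adjacent tissue contributed was not tested. Of 160 olfactory receptor genes, whose products detect odorants, 6 lay lower and 6 higher, with a median difference of 0.06. After centring their median difference was 0.77, against 0.20 over all genes. Then 0 of them separated the groups as lower and 10 as higher, against 2.40% and 2.82% of all genes. The summed level of the olfactory receptor genes was 958 to 6074 RPM in NT and 5507 to 6302 in the combination.

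Among 17 listed microRNA genes 1 lay lower at an unadjusted p below 0.05 (Mir16-1) and 2 lay higher (Mir129-1 and Mir133b). The shares of all genes were 10.8% and 1.64%, and 0 of the 17 separated the groups. The reads come from mRNA libraries and so count precursor or host transcripts, not mature microRNAs. The mature sequences of the higher pair are shown, from RefSeq on GRCm38.p6, so that their seeds (bases 2 to 8, capitals) can be compared.
mmu-miR-129-5p: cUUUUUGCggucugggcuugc
mmu-miR-133b-5p: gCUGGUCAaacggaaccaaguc
mmu-miR-133b-3p: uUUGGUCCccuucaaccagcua
These 3 seeds differ from each other. Mir129-1 had values of 8.49, 10.87, 8.06 and 8.98 in NT and 11.45, 10.67, 12.29 and 11.35 in the combination, a difference of 2.34 ± 0.70 (adjusted p = 0.339, and 0.0364 without NT 5). NT 5 lay above Combination 36 there. Mir133b, a microRNA of the muscle family, had 8.92, 10.42, 9.35 and 8.76 in NT and 10.07, 11.86, 11.38 and 10.98 in the combination, a difference of 1.71 ± 0.72 (adjusted p = 0.392). Each overlaps a longer transcript on the same strand, Gm3294 and Gm28653, so the reads cannot be given to the microRNA gene with certainty.

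The single treatments were set beside the combination in the same fit, with the NT tumours shared. DkkMo against NT and DRB against NT each called 0 genes (0%) with limma, at 1554 and 1500 genes with an unadjusted p below 0.05, and the median differences over all genes were -0.54 and 0.28. Combination against DkkMo called 0 genes (0%), with 150 at an unadjusted p below 0.05. Combination against DRB called 872 lower (6.92%) and 54 higher (0.429%), and its median difference was -0.71. In the 10 most abundant genes, DRB libraries held 46.72 to 73.55% of reads and combination libraries 13.46 to 18.64%. DRB tumours also had 85.32 to 106.1 megareads on listed genes, against 28.33 to 41.05 in the combination. All contrasts in this paragraph were fitted on the deposited scale only, so their dependence on the scale was not tested. The test of whether the effect of DkkMo differed with and without DRB called 0 genes, with 853 at an unadjusted p below 0.05.

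The distance from the single treatments varied between genes. Aldh1a1 had 9.22 to 9.71 in DkkMo and 11.56 to 13.75 in DRB tumours, so the combination differed from DRB by -3.70 ± 0.62 (adjusted p = 0.00176, limma) and from DkkMo by -0.36 (95% interval -1.65 to 0.94). Trub1 differed from DRB by -7.54 ± 0.92 (adjusted p = 0.000136) and from DkkMo by -0.49 (95% interval -2.42 to 1.44). Igsf11 differed from DRB by -6.34 ± 0.70 (adjusted p = 6.54e-05) and from DkkMo by -1.03 (95% interval -2.48 to 0.43). These intervals are wide enough to hold differences from DkkMo of more than 1.5-fold. Bmp2 differed from DkkMo by 2.37 (95% interval 0.22 to 4.52), which did not pass adjustment (adjusted p = 1). Prf1 differed from DRB by -8.44 ± 1.71 (adjusted p = 0.008) and from DkkMo by -2.30 (95% interval -5.88 to 1.27). Epb41l4a differed little in mean from either, by -0.35 ± 0.57 from DRB (adjusted p = 0.73) and by 0.50 from DkkMo (95% interval -0.69 to 1.69).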

How the data were processed

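Libraries were prepared from oligo(dT)-selected RNA of the fixed tumours. The authors aligned reads to GRCm38 with HISAT2 2.1.0 and counted them per gene with SAMtools 1.9 and featureCounts (Subread 2.0.0), and the submitters' notes also name DESeq2 and StringTie. The deposited tumour values are variance-stabilised log2 values after division by a size factor per library. Strandedness and the treatment of multiply mapped reads are not given in the sources used here.

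The transformation was reversed to whole reads, and 99.98% or more of the values below 1000 reads per library came out within 0.05 of a whole number. Group means were compared by limma (version 3.58.1, R 4.3.3) in a single fit of all 16 tumours, in which the moderated variance followed the mean value, and p-values were adjusted by Benjamini-Hochberg over 12595 genes. A gene was called at an adjusted p below 0.05 and over 1.5-fold. How the method performs on genes that vary as widely between tumours as these do was not tested. Nothing shows whether replicates share cages or preparation, so p-values measure the spread between these tumours.

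The comparison, the gene lists and the rule for named genes were chosen with earlier results of these data known. Named genes were those in the study's text, the called genes with the largest differences or smallest p, and up to 4 members of each list. Since no gene was called, the same ranking was applied to genes whose groups do not overlap, after their values had been seen, and further genes are named where a count is small or a family is listed. Gene positions and exonic lengths come from the annotation of GRCm38.p6, in which 97.5% of genes matched. Alternatives tried were other scalings, filters, variance models, voom and leaving out tumours.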

Additional observations from a re-analysis of the deposited data

Results flagged for a closer look

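In 184 groups of 4 tumours examined (named genes and library measures), 21 had 1 tumour far from the other 3 by Dixon's ratio (95% critical value). Where 3 tumours lie at the lowest value of 6.23, the ratio is 1.00 whatever the value of the other. Named genes were also chosen partly on these values, so no chance rate is given for the count.

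Among the untreated tumours, NT 7 had 32040 RPM on ribosomal protein genes (48.2 to 2596 in the other NT tumours), 3093 on heat shock genes (2.97 to 259), 26710 on housekeeping genes (48.5 to 2110), 34680 on lymphocyte genes (877 to 2526) and 24190 on osteoblast lineage genes (1256 to 3491). NT 7 was also high for Runx2 at 15.66 (11.81 to 12.19) and low for Actr3b at 10.21 (11.12 to 11.23). NT 5 was high for Bmp2 at 9.62 (6.38 to 6.66) and for Ckmt2 at 8.82 (6.86 to 6.97), and low for Ephb2 at 12.77 (13.34 to 13.45). NT 6 had 1101 genes at 0 reads (164 to 213).

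Combination 36 had 1710 ribosomal protein RPM (25.9 to 55.8 in the other combination tumours), 1136 housekeeping RPM (67.2 to 141) and 1798 lymphocyte RPM (624 to 718). It also had a high value of Sp6 at 12.66 (11.18 to 11.39). In 5 further genes 1 combination tumour had reads and the others had 0, at 6.23. These were Mki67 at 7.95, Prf1 at 6.96 and Ndufb8 at 6.47 in Combination 34, Trub1 at 7.00 and Ncl at 6.71 in Combination 38. Eef2 had 6.60 in Combination 36 alone.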

How the results depend on the processing

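With all 8 tumours the number of genes called stayed at 0, except for 1 with quantile normalization, 1 among genes above the median mean, 2 with array weights and 1 on RPM. Leaving out 1 tumour gave 0 to 252 genes called, and the 252 came without NT 5, where 2606 genes had an unadjusted p below 0.05 against 785 without NT 7. The following were chosen after seeing the data. Without NT 5, 404 genes were called on RPM, 97 after centring, 40 with the 7 tumours alone, 175 on log2 of the normalized count plus 1, 195 with quantile normalization, 3 with voom, 230 among genes above the median mean and 3876 with array weights, against 252. Leaving out NT 7 as well gave 9, and Combination 36 as well gave 57. The cause of these differences was not tested. Among the differences of 79 named genes, 6 values in 3 genes changed sign: Lef1 at 0.15 after centring, 0.24 with quantile normalization, 0.45 on RPM and 0.11 after centring without NT 5, Alpl at -0.05 without Combination 40 (-0.05 to 0.48 over tumours left out) and Col1a1 at -0.22 without NT 1 (-0.22 to 0.64). A further 59 values passed the threshold under an alternative and 1041 stayed on their side of it. Of the list medians, 46 moved by more than the spread between tumours and 528 did not. No paired analysis was possible because the tumours come from different mice and carry no shared replicate numbers. Depth limits genes near 0 reads, and the combination tumours had the fewer reads.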

Other observations

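Further gene groups were counted beside the 10.8% of all genes that lay lower and the 1.64% that lay higher. Of 20 interferon-stimulated genes 2 lay lower in the combination at an unadjusted p below 0.05 and 0 higher, with a median difference of -0.78 that became -0.06 after centring. Of 14 genes of glycolysis and hypoxia 3 lay lower and 0 higher, and Kdm3a, a hypoxia-induced histone demethylase, had 12.02 to 15.13 in NT and 9.53 to 11.44 in the combination. Of 20 lysosome and autophagy genes 2 lay lower and 0 higher, with a median difference of -1.58 and no separated member, so both lists of 20 had shares near that of all genes. Of 7 osteoclast genes 2 lay lower, with a median difference of 0.28. Of 16 stem cell markers of the study 2 lay lower and 1 higher, with a median difference of -0.34 that became 0.37 after centring.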
